A study of Mus musculus with 2 samples.

Results

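The regions described here are 1 kb bins of the mouse autosomes that were rich in reads of a library made with an antibody against 5-methylcytosine (5mC) and that held no read of a library made with an antibody against the histone variant H2ABbd. They are called 5mC-only bins below, a name for their counts alone. A bin was taken when at least 15 distinct read positions of the 5mC library and 0 of the H2ABbd library fell in it. A distinct position is a combination of chromosome, 5′ end and strand, counted once and moved 100 bp towards the 3′ end. Of 2164448 autosomal bins with a position in either library, 1835 met this rule. Both libraries came from mouse embryonic stem (ES) cells, which are pluripotent cells of the early embryo, grown here with the cytokine LIF and no feeder layer. The H2ABbd library was made by chromatin immunoprecipitation (ChIP-seq) with a home-made rabbit antibody, from chromatin crosslinked and sheared to 200 to 400 bp and amplified over 20 PCR cycles. The 5mC library was made by immunoprecipitation of denatured DNA (MeDIP-seq) with a monoclonal antibody, from DNA sheared to 100 to 400 bp and amplified over 15 cycles. There was 1 library per antibody and no input library was used here, so no difference between antibodies has a replicate check, no test was made, and every interval (95%) covers counting error only. The deposited files carry each other's antibody in their names. Groups follow the sample labels, so "5mC" and "H2ABbd" below mean the libraries labelled so.

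Cytosine methylation in mammals lies mainly on CpG dinucleotides. In ES cells most of the genome is methylated, CpG islands at active promoters are largely free of it, and the antibody used in MeDIP recovers DNA in proportion to the methylated cytosines a fragment carries, so stretches dense in methylated CpG stand out. H2ABbd is a short histone H2A variant of mammals without the full C-terminal tail and acidic patch of H2A. Nucleosomes that contain it wrap less DNA and are less stable, and it takes its name from its absence from the inactive X chromosome. A 5mC-only bin is a place where many positions of the 5mC library and none of the H2ABbd library were found, within what the depth allows. Without an input library or sequence, its density of methylated CpG is not known.

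The depth sets that limit. The H2ABbd library held 1396198 distinct positions on chromosomes 1 to 19 and X, against 8051714 for the 5mC library. This gave a mean of 0.622 H2ABbd and 3.55 5mC positions per autosomal bin with a position in either library (an occupied bin). The H2ABbd library had 3503847 lines and the 5mC library 9266472. H2ABbd lines were the more often repeated, at 2.56 lines per distinct position on the autosomes against 1.15. A bin without H2ABbd positions was the usual case, since 67.5% of occupied bins had none. A count of 0 in a single bin allows up to 3 positions, which is 4.82 times the H2ABbd mean. A single 5mC-only bin thus does not show that H2ABbd was below its mean there. Joining such bins into runs gives no tighter limit, since each was chosen for its 0.

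5mC positions chose the bins, so their level is a description. The 1835 bins held 35060 positions of the 5mC library. The median bin held 17, which is 4.78 times the autosomal mean, the lowest held 15 and the highest 98. Of the bins, 1344 (73.2%) held 15 to 19 positions, 391 held 20 to 29 and 100 held 30 or more. The 5mC-rich bins that also held H2ABbd positions (shared 5mC-rich bins) numbered 8661, with a median of 18 and a highest count of 1454. Just outside the rule lay 836 bins with 14 5mC and 0 H2ABbd positions, against 519 with 15 and 0 inside it. On the other side lay 1889 bins with 15 or more 5mC positions and a single H2ABbd position. Most 5mC-only bins were close to the 5mC limit of the rule.

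Bins rich in 5mC lacked H2ABbd less often than bins in general. Of the occupied autosomal bins 0.485% held at least 15 5mC positions, and 17.5% of those (exact Clopper-Pearson interval 16.8 to 18.2%) had no H2ABbd position, so that 5mC-only bins made up 0.0848% of occupied bins. The share without H2ABbd was 81.4% in bins with 1 5mC position, 48.7% in bins with 7 or 8, 21.02% (19.8 to 22.3%) in bins with 15 or 16 and 9.04% (6.95 to 11.5%) in bins with 30 to 39. Of 222 bins with 60 to 99 positions, 9 had none. Of 209 bins with 100 or more, 0 had none, which allows a share of up to 1.75%. The mean number of H2ABbd positions went the other way, from 0.254 at 1 5mC position to 2.99 at 15 or 16 and 8.17 at 30 to 39. 5mC-only bins were the H2ABbd-poor end of a class of bins whose H2ABbd level was mostly above the mean.

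**Figure D1:**
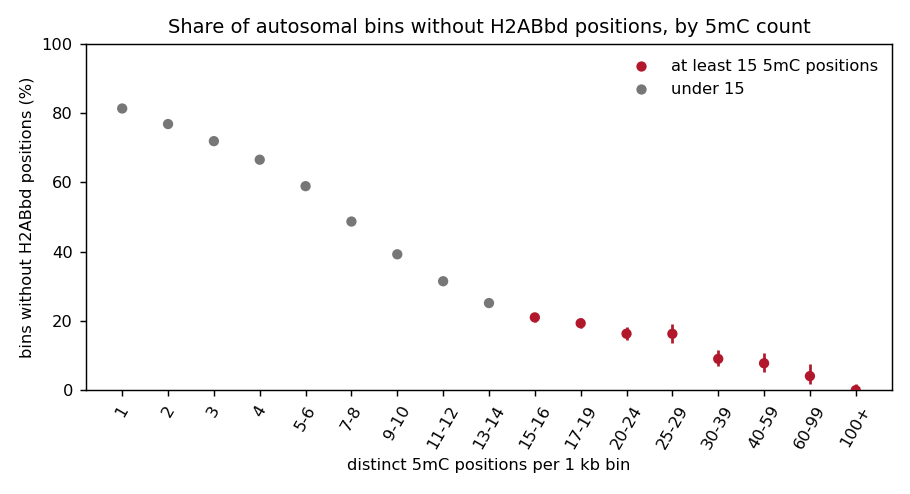
Share of occupied autosomal 1 kb bins without H2ABbd positions (vertical axis, %) by the number of distinct 5mC positions in the bin (horizontal axis); points are shares and lines are exact 95% intervals, which are smaller than the points where bins are many. The share falls from 81.4% at 1 position to 21.02% at 15 or 16, where the rule for 5mC-only bins starts (red), and to 0 at 100 or more.

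Positions that had not chosen the bins gave a measure independent of the rule. Distinct positions were numbered by their first line in the file, and bins with at least 8 5mC and 0 H2ABbd positions were chosen on the odd-numbered positions alone. In these 6400 bins the even-numbered positions of the H2ABbd library stood at 1.95 times their autosomal mean (1.89 to 2.01), and 60.8% of the bins again held none. The 5mC level on the even-numbered positions was 3.05 times its mean (3.02 to 3.08), at 5.41 positions per bin, against 9.42 on the positions that chose the bins. With the numbering exchanged, the H2ABbd level in 6416 bins was 1.99 (1.93 to 2.05) and the 5mC level 3.07. Bins chosen only for 0 H2ABbd positions, at any 5mC count, stood at 0.598 times the H2ABbd mean on the other positions. Bins with at least 8 5mC positions and 1 or more of H2ABbd stood at 16.7 times, a mean over bins of very unequal H2ABbd counts (median 2 positions). Among bins with 8 to 14 5mC positions on the odd numbers, a class chosen after the values were seen, the level was 1.90 times the mean (1.84 to 1.97) without and 6.49 times (6.39 to 6.59) with H2ABbd on those numbers. On the even numbers these bins differed in 5mC as well, at 4.92 and 6.19 positions per bin. H2ABbd was absent there from 61.3% and 29.6% of them, and the bins with H2ABbd had a median of 1 position. On reads outside the choice, bins chosen in this way were therefore as a class above the H2ABbd mean, and below their 5mC-rich counterparts with H2ABbd. They are not the same set as the 1835 5mC-only bins, which held 0 H2ABbd positions on both numberings. The 6400 bins had a mean of 0.607 and a median of 0 H2ABbd positions on the even-numbered positions. At so low a mean, the median does not tell whether all of these bins or a part of them were raised. The lines of both numberings came from 1 library each, so this is no replicate.

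The surroundings of 5mC-only bins held H2ABbd. At least 1 adjoining bin had an H2ABbd position at 1217 of the 1835 bins (66.3%), against 79.7% of the shared 5mC-rich bins and 43.4% of all bins with 5mC and without H2ABbd. The shared bins were chosen for holding H2ABbd, which favours the higher share beside them. The stretch without H2ABbd positions around a 5mC-only bin had a median length of 3.78 kb, and it was 7.17 kb around all bins with 5mC and without H2ABbd. Stretches over 10 kb held 196 of the 5mC-only bins (10.7%), against 34.1% of that larger set. In the 100 kb around each bin, without the bin and its neighbours, 5mC-only bins had a median of 0.856 H2ABbd positions per occupied bin, and the median over all occupied bins was 0.474. This local level was above the latter at 1506 of the 1835 bins (82.1%, 80.2 to 83.8%). The local 5mC level was raised as well, with a median of 5.18 positions per bin against 3.25. Shared 5mC-rich bins had similar 5mC surroundings (5.196) and somewhat more H2ABbd (0.980). Both local levels were above the autosomal means (0.622 and 3.55) at 1237 of the 5mC-only bins (67.4%, 65.2 to 69.6%). Nearby 5mC-only bins share much of these surroundings. The intervals of both shares count each bin as independent, so they do not measure the spread over places. In the adjoining bins other than 5mC-only ones H2ABbd stood at 1.73 times its mean. These bins include shared 5mC-rich ones, which hold H2ABbd by definition. Without any 5mC-rich bin, a setting chosen after the values were seen, the level was 1.33 (1.28 to 1.38). With every line counted in place of distinct positions, also for the choice of bins, 2707 bins met the rule. H2ABbd then stood at 0.817 times its mean (0.797 to 0.837) in their adjoining bins.

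The flanks were compared over 20 kb on either side, leaving out every 5mC-rich bin so that runs of rich bins did not carry the values. At 1 kb the 5mC level was 1.57 times the autosomal mean beside 5mC-only bins (1.54 to 1.59) and 1.55 beside shared 5mC-rich bins (1.54 to 1.56), and at 20 kb both stood at 1.30. An H2ABbd position was found in 41.9% of the bins at 1 kb from 5mC-only bins (40.1 to 43.6%) and in 53.4% of those at 1 kb from shared 5mC-rich bins (52.6 to 54.2%). At 20 kb these shares were 41.8% (40.1 to 43.4%) and 45.2% (44.4 to 46.0%), and over all occupied bins 32.5%. Around shared bins the H2ABbd share thus came down with distance, while around 5mC-only bins it lay between 41.8 and 44.7% at 1, 2, 5, 10 and 20 kb. The sets were split by the H2ABbd count of the bin itself, which favours such a difference in the nearest bins. Many 5mC-only bins had much lower neighbours, which choosing bins for a high count favours. At 832 of them (45.3%) both adjoining bins held under 8 5mC positions, and at 401 (21.9%) an adjoining bin held 15 or more. For shared 5mC-rich bins the figures were 44.5% and 23.7%, with overlapping intervals.

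**Figure D2:**
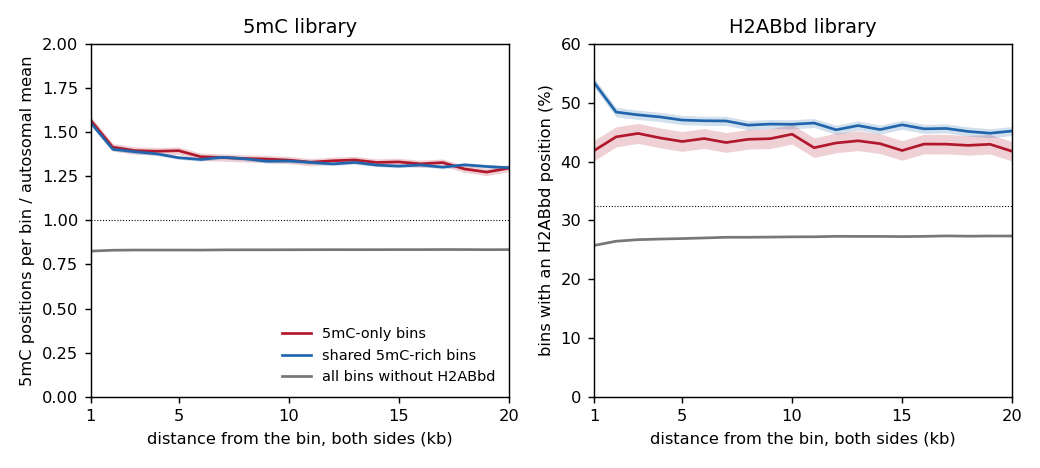
Left, 5mC positions per bin over the autosomal mean, and right, the share of bins with an H2ABbd position (%), by distance in kb from 5mC-only bins (red), shared 5mC-rich bins (blue) and all bins with 5mC and without H2ABbd (grey), leaving out 5mC-rich bins; bands are exact 95% intervals and dotted lines the values over all occupied bins. The red and blue 5mC lines lie close together, while at 1 kb the H2ABbd share is 41.9% for red and 53.4% for blue. Splitting the sets by their own H2ABbd count favours this difference.

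5mC-only bins lay on every autosome, at 0.848 per 1000 occupied bins over all (0.810 to 0.887). Chromosome 8 had the most for its length, with 161 bins or 1.42 per 1000 (1.21 to 1.66), and chromosome 14 the fewest, with 41 or 0.377 (0.270 to 0.511). Next to chromosome 8 came chromosomes 17 (1.18) and 4 (1.17), whose intervals reached into that of chromosome 8, and next to chromosome 14 came 13 (0.443), 12 (0.537) and 3 (0.544). Most of this order belonged to 5mC-rich bins in general, which were also most frequent on chromosome 8 (9.06 per 1000) and least on chromosome 14 (2.59). The share of 5mC-rich bins without H2ABbd varied less, from 13.7% on chromosome 13 (10.2 to 17.8%) to 21.3% on chromosome 1 (18.5 to 24.3%). It was 15.7% on chromosome 8. Without the 1 Mb windows that held 10 or more 5mC-only bins, the density on chromosome 8 was 1.08 (0.893 to 1.28), over all its occupied bins. That is below chromosome 17, which held no such window, with overlapping intervals, so the first place of chromosome 8 rests on 1 window.

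The distal ends of chromosomes were richer in 5mC-only bins. The last 10 Mb of the autosomes held 323 of them, 1.83 per 1000 occupied bins (1.63 to 2.04), the first 5 Mb after the first occupied bin held 103 (1.205, 0.983 to 1.46), and the rest held 1409 (0.741, 0.703 to 0.780). Shared 5mC-rich bins followed the same order, with 8.33, 6.86 and 3.47 per 1000. Of either set, 17.6% and 16.996% lay in the last 10 Mb.

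**Figure D3:**
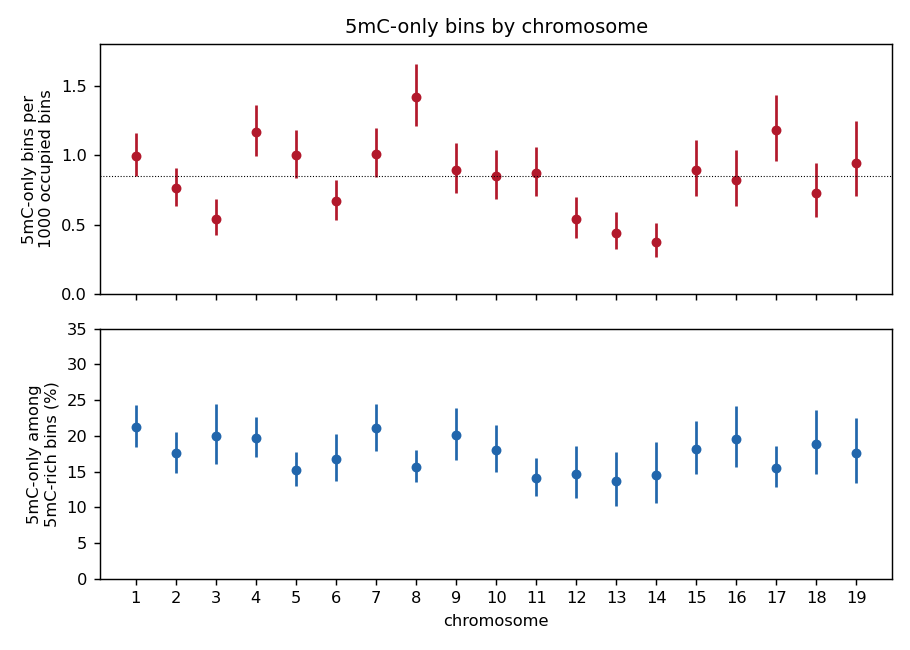
Top, 5mC-only bins per 1000 occupied bins of each autosome, and bottom, their share among the 5mC-rich bins of that autosome (%); points are values, lines exact 95% intervals and the dotted line at the top the value over all autosomes (0.848). Chromosome 8 is highest (1.42) and chromosome 14 lowest (0.377) at the top, while the shares below range only from 13.7 to 21.3%.

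Most 5mC-only bins stood alone. Joined where they adjoined, they formed 1739 runs, of which 1666 were single bins, 61 were pairs and 12 were longer, up to 7 bins. Another 5mC-only bin began within 10 kb of 386 of them (21.04%, 19.2 to 22.97%), the median distance to the nearest was 133 kb, and 226 bins had none within 1 Mb. Shared 5mC-rich bins, a denser set, had one of their own within 10 kb in 37.0% of cases, at a median distance of 26 kb. A shared 5mC-rich bin lay within 10 kb of 620 of the 5mC-only bins (33.8%) and directly beside 273.

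A small number of places held many of them. Of 2420 windows of 1 Mb, 849 held a 5mC-only bin, 450 of these just 1, and 11 held 10 or more, with 254 bins (13.8%) between them. The 3 fullest windows were chromosome 8 from 19 to 20 Mb with 39 bins, chromosome 4 from 145 to 146 Mb with 34, and chromosome 1 from 137 to 138 Mb with 32. On chromosome 8 the 39 bins lay within 306 kb, in a window with 211 5mC-rich bins, a mean 5mC level 3.72 times the autosomal mean and a median of only 4 positions per bin. Its H2ABbd level was 1.75 times the mean. On chromosome 4 the bins were spread over 847 kb and made up 45.3% of 75 rich bins, with the window at 2.05 times the 5mC mean and 1.197 times the H2ABbd mean. On chromosome 1 the bins spread over 837 kb and made up 34.04% of 94, with the window at 2.54 and 1.47 times, and the next window held 24 more. These levels include the 5mC-only bins for which the windows were chosen. With no input library used here, the number of copies of a sequence in the cells and its enrichment cannot be told apart in these windows. Without the 11 windows, a choice made after the values were seen, 1581 bins remained and 13.5% had another within 10 kb. The H2ABbd level of their 100 kb surroundings then had a median of 0.827 positions per bin.

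The fifth fullest window, chromosome 7 from 71 to 72 Mb with 25 bins, held 2 of the named runs close together. Here 21 bins lay in a block of 30 kb, mm9 chr7:71611001-71641000, singled out after its values were seen as the surroundings of the run with the most positions. Its bins held 8 to 26 5mC positions with a median of 20, and the block as a whole held 580, which is 5.44 times the autosomal mean (5.01 to 5.90). Here too copy number and enrichment cannot be told apart. The 20 kb before it had a mean of 6.25 positions per bin and the 20 kb after it 6.15, with single bins of at most 14 and 12. At the left edge the count went from 3 to 14 to 21 in successive bins, and at the right edge from 22 to 7. The 21 5mC-only bins had been chosen for holding no H2ABbd position. The 9 other bins of the block held 3, which is 0.536 times the mean with an interval that includes it (0.111 to 1.57). Those 3 lay singly in bins with 19, 19 and 25 5mC positions, which the rule left out only for holding them. The other 6 bins held none and were left out for their 5mC counts. The level of the 9 bins is thus not independent of the rule. The 20 kb before held 8 H2ABbd positions and the 20 kb after 17. Both strands were equally read in the block (51.2% plus, 47.1 to 55.3%) and repeated lines were few, at 1.01 lines per position.

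Other runs were isolated peaks of 5mC. The 3 kb run mm9 chr12:4219001-4222000 held 30 to 53 positions per bin, 11.9 times the mean (9.93 to 14.2), beside 8 positions in the bin before and 1 in the bin after. The 5 bins before it held 10 H2ABbd positions, 1 of them in the adjoining bin, and the 5 after it 3. The stretch without any was 5.57 kb long. The 2 kb run chr9:100999001-101001000 held 47 and 60 positions (15.1 times, 12.3 to 18.2) between bins with 2 and 7. No H2ABbd position lay within 5 kb on either side of it, and the stretch without any was 20.1 kb long. The 2 kb run chr6:142698001-142700000 held 21 and 81 positions (14.4 times, 11.7 to 17.4). In all 3 of these runs the adjoining bins on both sides held at most 8 5mC positions, so the peaks rose and fell from bin to bin.

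Longer and lower runs lay on chromosomes 15 and 19. The 4 kb run chr15:59263001-59267000 held 19 to 32 positions per bin (7.25 times, 5.92 to 8.79), with at most 6 in any of the 5 bins on either side, inside 13.7 kb without H2ABbd. The 6 kb run chr19:24987001-24993000 held 16 to 19 positions in each of its 6 bins (4.83 times, 3.94 to 5.86). Among the 10 runs with the most positions were also the 7 kb and 5 kb runs of the chromosome 7 block (5.95 and 5.97 times), the 3 kb run chr8:19730001-19733000 (9.01 times), the 3 kb run chr9:110346001-110349000 (8.63 times) and the 2 kb run chr1:135491001-135493000 (10.98 times). At the chromosome 8 run, in the fullest window, the bins beside it held 69 and 32 5mC positions and 3 and 6 of H2ABbd. The run thus lay inside a wider stretch of 5mC. Its lack of H2ABbd was fixed by the rule, and the stretch without H2ABbd positions was 3.55 kb long.

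**Figure D4:**
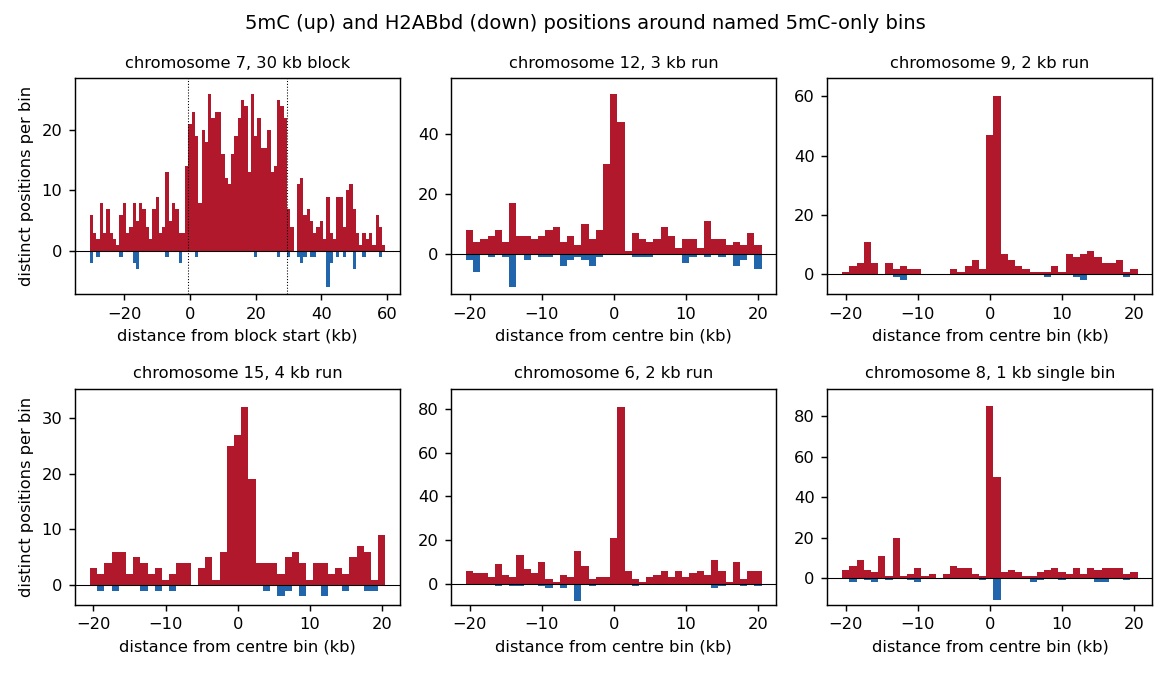
Distinct 5mC positions (red, upwards) and H2ABbd positions (blue, downwards, on the same scale within a panel) per 1 kb bin around 6 places, by distance in kb from the block's start (first panel, dotted lines mark the 30 kb block) or from the centre bin. The chromosome 7 block is a broad stretch at 8 to 26 5mC positions per bin, the runs on chromosomes 12, 9, 15 and 6 are isolated peaks, and the chromosome 8 bin adjoins a bin with 11 H2ABbd positions.

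Single 5mC-only bins with the highest counts were of another kind. The bin chr16:3233001-3234000 held 98 positions, 27.6 times the mean (22.4 to 33.6), between bins with 114 and 108 that each held 3 H2ABbd positions. On chromosome 11 the bins chr11:3099001-3100000 and chr11:3041001-3042000 held 93 and 77 positions. The 5 bins on each side of the former held 36 H2ABbd positions in all, and those around the latter held 196. The bin chr8:14306001-14307000 held 85 positions beside a bin with 50, and that neighbour held 11 H2ABbd positions, so the 5mC peak crossed the bin edge. The bin on its other side held 1 H2ABbd position. The stretch without any was 1.05 kb long, little more than the bin itself, so its 0 depended on where the bin edges fell. Of these 5 single bins, chr14:119201001-119202000 alone stood apart from other 5mC, with 69 positions (19.4 times, 15.1 to 24.6) between bins with 4 and 8 and none of H2ABbd in either neighbour. The bins on chromosomes 16 and 11 all lay between 3 and 4 Mb from the start of their chromosome, inside or at the edge of stretches where both libraries were high. From 3 to 20 kb before the chromosome 16 bin neither library had a position. From 2 to 20 kb after chr11:3099001-3100000 no bin held over 8 5mC positions. Stretches without H2ABbd were 1.57 kb long on chromosome 16, 2.08 and 1.40 kb on chromosome 11 and 6.71 kb at the chromosome 14 bin.

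Both strands were read at 5mC-only bins. Plus-strand positions made up 52.6% of all 5mC positions in them (52.1 to 53.2%), 52.5% in shared 5mC-rich bins and 52.7% over the autosomes. Single bins ranged from 6.67 to 100% plus with a median of 52.9%. A split of 3 to 1 or more was found in 164 bins (8.94%, 7.67 to 10.3%), of which 121 leaned to plus and 43 to minus. Among shared 5mC-rich bins it was found in 11.01% (10.4 to 11.7%). In bins with 15 to 17 positions, where counts are alike, the shares were 9.12% (7.47 to 11.01%) and 10.5% (9.58 to 11.5%), with overlapping intervals.

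The windows with many 5mC-only bins had the larger plus share. In the 254 bins of the 11 fullest windows 59.04% of positions were plus (57.7 to 60.4%), with 34 bins past 3 to 1 to plus and 1 to minus. In the 1581 bins elsewhere 51.5% were plus (51.0 to 52.1%), with 87 and 42. Of the 121 bins past 3 to 1 to plus, 87 thus lay outside these windows. The windows themselves were unlike each other. Chromosome 8 from 19 to 20 Mb, chromosome 4 from 145 to 147 Mb and chromosome 1 from 85 to 86 and from 87 to 88 Mb had 58.5 to 67.5% plus positions in the 5mC library, counted over the whole window. In the H2ABbd library the same windows had 58.4 to 68.5%, against 54.3% over the autosomes. Chromosome 1 from 137 to 139 Mb, chromosome 7, chromosome 10 from 80 to 81 Mb and chromosome 15 from 100 to 101 Mb had 50.5 to 51.3% in the 5mC library. The excess of plus positions was thus shared by both libraries at given windows, and it was present in bins below the threshold too, at 58.96% in the chromosome 8 window and 65.3% in the chromosome 4 window from 145 Mb. The 5mC-only bins of the chromosome 4 window from 146 Mb did not share the lean of their window (48.8% plus, 44.1 to 53.5%). The remaining window, chromosome 3 from 3 to 4 Mb, had 54.0% in the 5mC and 61.8% in the H2ABbd library. How reads with several possible positions were placed is not given in the sources used here.

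**Figure D5:**
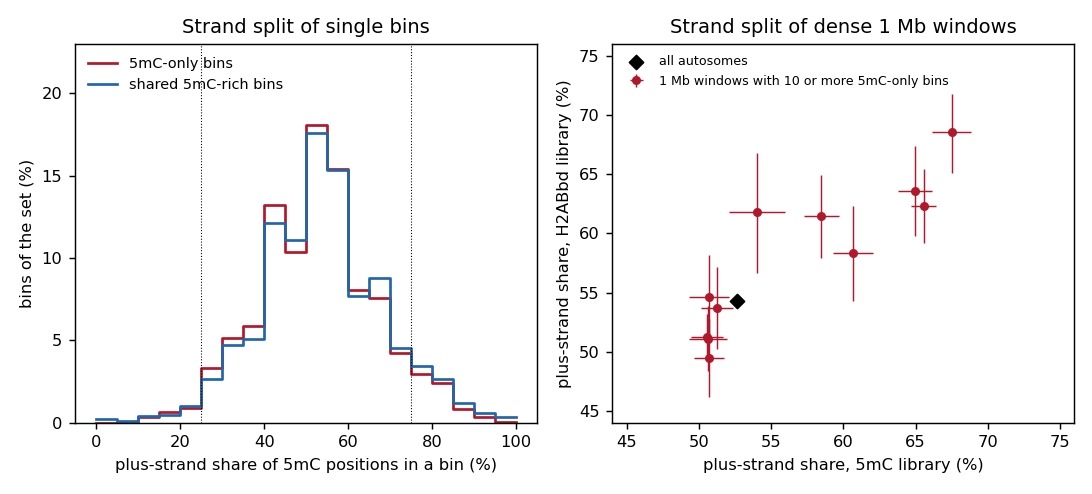
Left, distribution of the plus-strand share of 5mC positions (%) over 5mC-only bins (red) and shared 5mC-rich bins (blue), with dotted lines at a 3 to 1 split; right, plus-strand share of the 5mC library against that of the H2ABbd library (%) for the 11 windows of 1 Mb with 10 or more 5mC-only bins (lines are exact 95% intervals) and for all autosomes (diamond). Both sets peak near equal strands, and 5 of the windows lie above 58% in both libraries.

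Single bins at the ends of the strand range showed how positions fell in them. In chr1:24623001-24624000 all 32 positions were plus (89.1 to 100%). The bin before it held 144 5mC and 13 H2ABbd positions, and without the shift of 100 bp the bin itself held 5, of which 3 were plus. Most of its count thus came from read starts in the 100 bp before its left edge. In chr4:20931001-20932000, 17 of 18 positions were plus (72.7 to 99.9%), the adjoining bins held 4 and 1, and its count without the shift was the same 18, with 17 plus. This bin shared its plus share with 1 other and was taken as the first along the genome. In chr8:90174001-90175000, 14 of 15 positions were minus (plus share 0.169 to 31.9%), and without the shift it held 15 with 1 plus. In chr10:127878001-127879000, 17 of 19 were minus (plus share 1.30 to 33.1%), and the bin after it held 20 positions, with 24 in the bin itself and 15 of them plus when no shift was made. The strand extremes were therefore of both kinds, places at the edge of a denser bin and places read from 1 strand. Over all 5mC-only bins, 1384 (75.4%) also met the rule without the shift, and 180 (9.81%) then held an H2ABbd position.

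Inside the bins 5mC positions were spread and seldom repeated. Bins with 15 to 17 positions had a position in 7.09 ± 1.40 of their 10 windows of 100 bp (SD over 1074 bins), and shared bins of that count in 7.01 ± 1.40. In bins with 23 to 29 positions the values were 8.00 ± 1.44 and 7.54 ± 1.57, and 4 or fewer windows were filled in 0.505% against 3.95%. Lines per distinct position numbered 1.08 in 5mC-only bins, 4.23 in shared 5mC-rich bins and 1.15 over the autosomes, and the median bin had 1.06 in both rich sets. The difference in the means therefore lay in a part of the shared bins, and in the class with 15 to 17 positions the values were 1.07 and 1.08. Among pairs of read starts on different strands (bins of 15 to 29 positions), the commonest distance class was 40 to 59 bp in both sets. It held 2.46 times the number of pairs at 380 to 399 bp in 5mC-only bins and 2.83 times in shared ones. These numbers were not normalized for distance, and within 1 kb short distances outnumber long ones even for evenly spread positions. In bins with 15 to 17 positions the spread and the repeated lines of both sets were thus nearly the same, and at 23 to 29 positions 5mC-only bins were the more evenly filled.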

How the data were processed

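DNA of mouse ES cells was read in 2 libraries, 1 per antibody, with no replicate. The submitters' processing notes name FastQC, Bowtie and the build mm9. Their versions, the mismatches allowed and how reads with several positions were treated were not given in the material used. Each line of the 2 deposited files is 1 aligned read, and the score column was not used. Bins of 1 kb were filled with distinct positions of chromosomes 1 to 19, shifted by 100 bp. Left out were 8 lines of the H2ABbd file and 1 of the 5mC file with broken separators. Shares have exact Clopper-Pearson intervals, and levels have exact Poisson intervals divided by the mean. Reads of PCR products without molecular identifiers are not independent molecules. No mm9 sequence or annotation was used here, so regions carry coordinates (1-based) and no genes or sequences. Both the rule and the settings were chosen with earlier results of these data known. Named are the 10 runs of 2 or more bins and the 5 single bins with the most 5mC positions, the 3 fullest windows of 1 Mb and the 2 bins at either end of the plus share. For each of the first 8 measures 12 alternatives had been set, and others were added after seeing the data. The counting was tested on simulated data. Python 3.11.15, numpy 2.4.6, scipy 1.17.1, pandas 2.3.3 and matplotlib 3.10.9 were used.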

Additional observations from a re-analysis of the deposited data

Results flagged for a closer look

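The X chromosome lies outside the autosomal rule, and 76 of its 1 kb bins met the counts asked of 5mC-only bins. They are listed because the comparisons above do not use X, not because their number stands out. That was 0.561 per 1000 occupied bins (exact 95% interval 0.442 to 0.703), against 0.848 on the autosomes. They made up 26.1% of the 291 5mC-rich bins of X (21.2 to 31.6%), against 17.5% on the autosomes. The mean H2ABbd level on X was 0.368 positions per occupied bin, against 0.622, and the mean 5mC level 2.67, against 3.55.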

How the results depend on the processing

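The autosomal rule gave 1835 bins, 17.5% of rich bins, 1.42 per 1000 on chromosome 8, 21.04% with another within 10 kb, 52.6% plus, levels in adjoining bins of 2.21 (5mC) and 1.73 (H2ABbd) times the mean, and 1.08 lines per position. Of 107 values under alternatives, 33 stayed inside the main counting interval (for the number of bins, within 1.5 times) and 74 did not. The cause was not tested.

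A threshold of 12 5mC positions gave 6615 bins, 23.6% of rich bins, 4.23 per 1000 on chromosome 8, 52.1% plus, levels of 1.69 and 1.57, and 1.07 lines per position. A threshold of 20 gave 491 bins, 12.6%, 0.617 per 1000, 29.1% with another within 10 kb, 53.7% plus, levels of 3.38 and 2.01, and 1.08 lines. Allowing 1 H2ABbd position gave 3724 bins, 35.5%, 3.18 per 1000, 26.2% with another within 10 kb, 53.3% plus and levels of 2.11 and 1.89. Bins of 500 bp with at least 8 positions gave 16786 bins, 39.6%, 6.79 per 1000, 35.4% with another within 10 kb, levels of 1.48 and 1.44, and 1.07 lines. Bins of 2 kb with at least 30 gave 165 bins, 6.52%, 0.358 per 1000, 16.4% with another within 10 kb, 51.5% plus, a 5mC level of 2.87 and 1.07 lines. No shift gave levels of 2.16 and 1.60, and a shift of 50 bp 2.16 and 1.64. Moving the grid by 500 bp gave 53.7% plus, an H2ABbd level of 1.66 and 1.07 lines.

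Counting all lines, also for the choice of bins, gave 2707 bins, 19% of rich bins and 2.02 per 1000 on chromosome 8. Of these bins 18.2% had another within 10 kb, with a 5mC level of 1.801 and 1.099 lines per position. The H2ABbd level was 0.817, which is below the mean. Leaving out the 0.1% most covered bins gave 19.8%, 1.102 per 1000, 16.8% with another within 10 kb, levels of 2.04 and 1.63, and 1.07 lines. Asking for no H2ABbd position in the adjoining bins gave 618 bins, 5.89%, 0.326 per 1000, 13.9% with another within 10 kb, 51.4% plus, a 5mC level of 1.52, an H2ABbd level of 0 by construction, and 1.07 lines. Adding X gave levels of 2.33 and 1.79.

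Chosen after seeing the data, leaving out the windows of 1 Mb with 10 or more 5mC-only bins gave 16.4%, 1.08 per 1000, 13.5% with another within 10 kb, 51.5% plus, levels of 1.92 and 1.61, and 1.08 lines. Leaving every 5mC-rich bin out of the adjoining bins, also chosen then, gave 1.57 and 1.33. Choosing bins on the even-numbered positions, likewise, gave an H2ABbd level of 1.99 on the others, against 1.95.

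Depth limits single bins most, since a count of 0 allows 4.82 times the H2ABbd mean. No paired analysis was possible because each antibody had 1 library.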
